A study of Mus musculus with 17 samples.

Results

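Retinoic acid (RA) differentiation of *Usb1* knockout mouse embryonic stem cells was followed by bulk RNA sequencing, and the 3 knockout libraries at day 3 of RA were compared with the 3 knockout libraries at day 0. These 6 libraries are all the knockout samples at those days among the 17 samples of the study. The cells were R1/E embryonic stem cells, a mouse line that renews itself in culture and gives rise to all lineages of the embryo. *Usb1* had been disrupted by CRISPR/Cas9, and every knockout library came from 1 line, KO-1, so that the properties of that clone and the effect of the knockout cannot be told apart. Day 0 is the self-renewal condition and day 3 follows 3 days of RA, and each group consisted of 3 biological replicates. The study holds no day 3 group without RA, so RA and time in culture cannot be told apart. Whether LIF (leukaemia inhibitory factor) was kept under RA is not stated in the sources used here. Levels after 1 day of RA in the same line (n = 3) are given beside the 2 ends, and wild-type R1/E cells at day 0 (n = 2) and at day 3 of RA (n = 3) were used for the comparison of the genotypes. The reads on genes recovered from the deposited values numbered 15530932, 15830996 and 15404379 in the day 0 libraries and 17300186, 15879019 and 17078600 in the day 3 libraries. Of the 54532 genes listed, 17726 reached a TPM of 1 in 3 or more of the 6 libraries and were tested, TPM being the reads of a gene per length as a share of the library.

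U6 snRNA, a component of the spliceosome, ends in a run of uridines that the enzyme USB1 shortens, leaving a cyclic phosphate on the last one. RA enters the nucleus, binds heterodimers of the receptors RAR and RXR on DNA, and turns transcription on at genes such as those of the *Hox* clusters and of its own breakdown, which limits the signal. In embryonic stem cells without leukaemia inhibitory factor (LIF), RA is a classical inducer of differentiation, and the fate that follows (neural, mesodermal or extraembryonic endoderm) depends on dose and culture. The question put by the comparison is which genes change when stem cells lacking *Usb1* leave self-renewal under RA.

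*Usb1* (ENSMUSG00000031792, GRCm38 chromosome 8, 95332284 to 95347507, plus strand) had 15.5, 15.2 and 17.9 TPM in the knockout libraries at day 0, 20.7, 21.4 and 18.5 TPM at day 1 and 14.7, 17.2 and 20.4 TPM at day 3. Day 0 and day 3 overlapped, while every day 1 library lay above those of day 0, and the change from day 0 to day 3 was 0.09 on the log2(TPM + 1) scale (SE 0.14, adjusted p = 0.586, limma). Wild-type cells had 40.0 and 37.1 TPM at day 0 and 33.7, 32.0 and 35.8 TPM at day 3, above every knockout library. The mutant mRNA was therefore still detected, and its reads do not show whether protein is made. The Y-linked genes *Eif2s3y* and *Ddx3y*, named after their values were seen, had 0 reads in all 9 knockout libraries, whereas *Eif2s3y* reached 76.1 and 85.6 TPM in wild-type libraries at day 0. What the loss of Y-linked RNA contributes cannot be told apart from the knockout in a single line.

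The identity of the day 0 cells was checked with 6 markers of embryonic stem cells. *Pou5f1*, which encodes Oct4, the central regulator of pluripotency, was at 1279.9, 1466 and 1425 TPM at day 0. *Nanog*, its partner in naive cells, was at 764, 809 and 859.8 TPM, and *Sox2* at 881, 996 and 1022 TPM. *Zfp42* (Rex1) was at 1218, 1311 and 1272 TPM. All of these were high in all 3 libraries, as were *Esrrb* (mean 494 TPM) and *Klf4* (mean 295 TPM), so the starting cells carried the stem cell markers of their label.

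Between day 0 and day 3 the transcriptome was remodelled broadly. With a fold minimum of 2 and an adjusted p below 0.05 (limma on log2(TPM + 1), Benjamini-Hochberg over the 17726 genes), 4632 genes were called, 26.1% of those tested. Of these, 2938 were higher at day 3 (16.6%) and 1694 were lower (9.56%), and 1003 rose and 455 fell by at least 4-fold. The libraries of the 2 days did not overlap for 11596 genes (65.4%), among them 4595 of those called. Fold changes on this scale understate the change of genes of low TPM, and TPM values are shares of a total, so a rise of one gene lowers the values of others. The genes called higher made up 4.35%, 4.13% and 4.17% of all TPM in the day 0 libraries and 15.9%, 16.9% and 16.1% in the day 3 libraries. Those called lower fell from 11.97%, 12.15% and 12.12% of all TPM to 3.65%, 3.79% and 3.69%. These shares describe the genes that the test itself selected, and carry no test of their own.

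The balance of rises and falls depended on scaling. Taken over all 17726 genes, the median change on the log2 scale was 0.07 without scaling between libraries, −0.07 after quantile normalization and −0.21 after scaling to an equal median. Rises numbered 2403 against 2175 falls after quantile normalization, and 2114 against 2683 after scaling to an equal median. Day 3 replicate 1 stood apart in the number of genes with a single read, 1224 against 2428 and 2467 in its 2 partners and 2150 to 2361 at day 0. Without it, 4697 genes were called (3139 higher, 1558 lower), of which 4324 were among the 4632. Across genes, Pearson's r of log2(TPM + 1) was 0.978 to 0.979 between day 0 libraries, 0.966 to 0.975 between day 3 libraries and 0.833 to 0.848 between the days. Genes are not independent of each other, so these r values describe the libraries and carry no test.

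**Figure D1:**
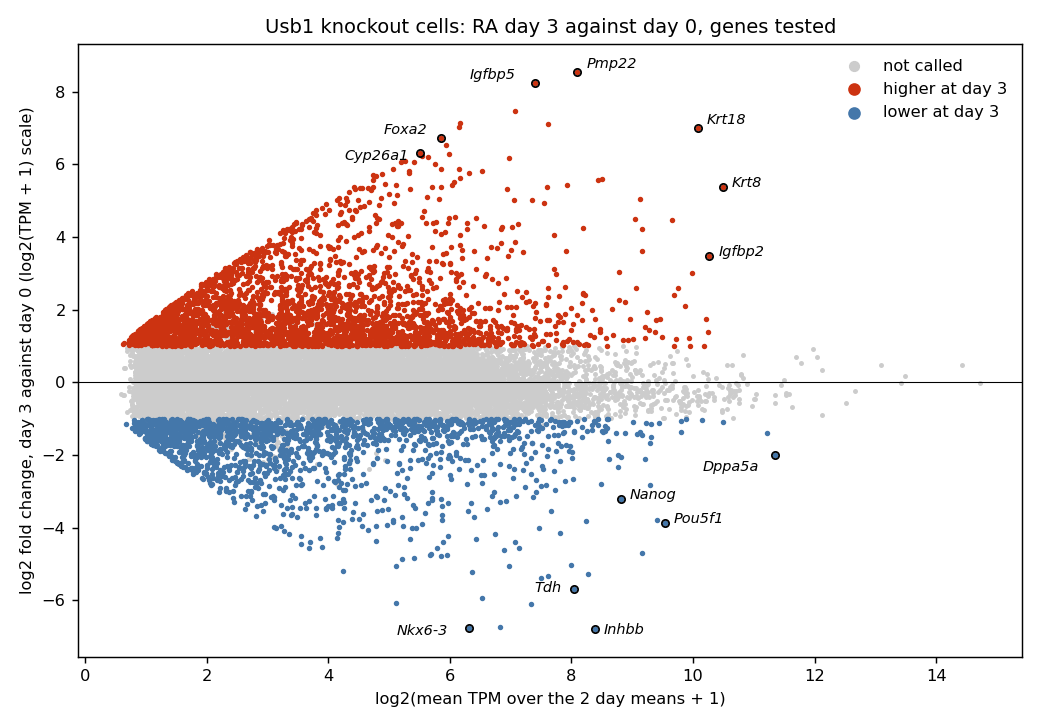
Log2 fold change of day 3 against day 0 (vertical axis, log2(TPM + 1) scale) against the log2 of the mean TPM + 1 of the 2 days (horizontal axis) for the 17726 genes tested in *Usb1* knockout cells, 1 point a gene. Red points are the 2938 genes called higher, blue points the 1694 called lower, grey points the rest; named genes are circled, with *Pmp22* at 8.55 and *Inhbb* at −6.79.

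The largest rise on the log2 scale among the genes named was that of *Pmp22*. *Pmp22*, a membrane protein of peripheral myelin that is also made in many epithelia, went from 0.828, 0.0889 and 0.553 TPM at day 0 to 555, 540.5 and 542 TPM at day 3. The 3 day 3 libraries were close together and far above day 0, 8.55 on the log2 scale (SE 0.18, limma adjusted p = 2.10e-07). *Igfbp5*, a secreted binding protein of insulin-like growth factors, had 0.0721, 0.174 and 0.0361 TPM and then 295, 373 and 335 TPM, and all of that rise came after day 1 (mean 0.169 TPM). *Gas1*, a cell surface protein named for its expression in growth-arrested cells, went from 2.34, 1.56 and 1.47 to 383, 424 and 352 TPM. For these and the other genes chosen by the size of their change, the rule itself asked that the libraries of the 2 days not overlap.

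The 12 largest rises also took in 3 genes of contractile proteins. *Acta2*, smooth muscle actin, had no reads in the day 0 libraries and reached 146, 127 and 153 TPM at day 3, at least 484-fold higher when 3 reads are allowed for in each day 0 library. *Acta1*, skeletal muscle actin, went from 0.141, 0.409 and 1.13 TPM to 286, 249 and 267 TPM, and *Myl9*, a myosin light chain, from 0.559, 1.26 and 0.187 to 128, 117 and 129 TPM. All 3 were still below 4 TPM on average at day 1. *Car4*, a membrane-bound carbonic anhydrase, rose from 0.110, 0 and 0.994 to 125, 120.4 and 115 TPM.

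By TPM gained, the 5 leading genes were *Krt8*, *Krt18*, *Igfbp2*, *Mdk* and *Serpinh1*. *Krt8*, the type II keratin of simple epithelia, was at 62.6, 70.1 and 67.2 TPM at day 0, at 75.3 TPM on average at day 1 and 3089, 2769 and 2589.8 TPM at day 3. Its partner *Krt18* went from 16.1, 14.7 and 15.6 to 2390.5, 2024 and 2001 TPM, 7.02 on the log2 scale (SE 0.08, limma adjusted p = 8.04e-08). Together the pair took up 0.00787% to 0.00849% of all TPM at day 0 and 0.459% to 0.548% at day 3. *Igfbp2*, another binding protein of insulin-like growth factors, rose from 203 to 2261 TPM on average. *Mdk*, the RA-inducible growth factor midkine, rose from 219 to 1807 TPM. *Serpinh1*, the collagen chaperone Hsp47, rose from 68.6 to 1544 TPM. Each of these 5 already had a higher mean at day 1 than at day 0, by the smallest margin for *Krt8*.

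The steepest falls included genes well known from stem cells (*Nr0b1*, *Tcl1*, *Tdh* and *Tdgf1*, taken up again with their lists) and several that are not. *Inhbb*, the beta B subunit of activin and inhibin, fell from 689.7, 637 and 655 TPM to 4.87, 6.21 and 3.9997 TPM, −6.79 on the log2 scale (SE 0.13, limma adjusted p = 1.74e-07). *Nkx6-3*, a homeobox gene, fell from 153, 165 and 151 to 0.519, 0.814 and 0.0951 TPM. The keratin *Krt17* fell from 196, 232 and 241 to 0.125, 3.38 and 0.823 TPM, against the direction of *Krt8* and *Krt18*. *Cbr3*, a carbonyl reductase, fell from 133, 173 and 172 to 4.79, 2.90 and 2.38 TPM.

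In this list of 12, *Tdgf1* (Cripto, the co-receptor of Nodal) stood with its near copies *Tdgf1-ps1* and *Gm18363*, and reads may have been split between the gene and such copies, so their separate values are uncertain. *Tdgf1* itself had 611, 595 and 592 TPM and then 10.3, 17.1 and 17.4 TPM. *Gm46332* and *Mir7003* lost all reads by day 3, from means of 66.9 and 35.7 TPM. TPM of a miRNA gene in such a library counts reads over a short stretch of its locus, not the mature miRNA. By TPM lost, *Dppa5a* led, from 3876, 4309.6 and 4233 TPM at day 0 over 7192 TPM on average at day 1 to 1250.5, 1034 and 857 TPM at day 3. *Dppa5a* is an RNA-binding protein of pluripotent cells, and its level at day 1 was above every day 0 library. *Hsp90aa1*, a heat shock chaperone, fell from 3445 to 1312 TPM on average, and *Utf1*, a chromatin factor of undifferentiated cells, from 1099 to 41.7 TPM.

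Silent genes that came on outnumbered active genes that went off. Of the called genes, 86 were below 1 TPM on average at day 0 and at least at 20 TPM at day 3, of which 78 are protein-coding. The reverse held for 12, of which 5 are protein-coding.

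**Figure D2:**
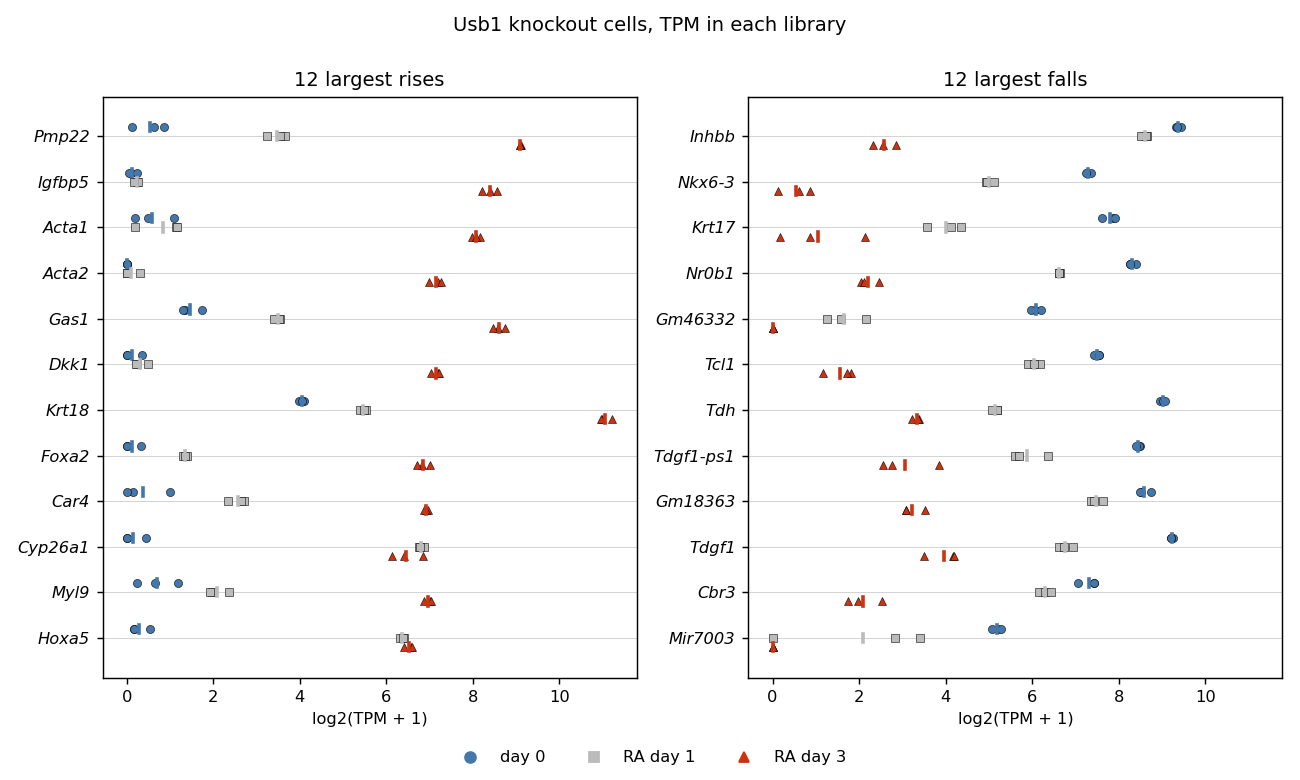
log2(TPM + 1) in each *Usb1* knockout library for the 12 largest rises (left) and the 12 largest falls (right) among called genes of at least 20 TPM at the higher day; circles are day 0, squares day 1, triangles day 3 (3 libraries each), and vertical ticks are means. *Cyp26a1* and *Hoxa5* were near their day 3 level at day 1 (means of 110.3 and 81.3 TPM), whereas *Acta2*, *Dkk1* and *Igfbp5* were below 0.3 TPM there.

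RA reaches its receptors through uptake, synthesis and binding proteins and is removed by enzymes of the CYP26 family. Of 21 genes for these steps, 18 were tested and 11 rose and 2 fell. Counts in this list and those below are to be read beside all genes tested, of which 16.6% rose and 9.56% fell. A gene that is near 0 at day 0 is tested because of its level at day 3, so for a list with untested members the median log2 change is also given without the filter on low values. It was 2.36 over the 18 genes tested and 1.10 over all 21 (0.07 and 0.03 for all genes). *Cyp26a1*, which breaks RA down, had 0, 0.354 and 0 TPM at day 0, 116, 107 and 108 TPM at day 1 and 84.3, 113 and 69.0 TPM at day 3. It came on in every library within a day and stayed on. By reads, day 3 stood at 774 times day 0 (exact 95% interval 264 to 3754, counting error alone). *Crabp2*, which carries RA to the receptors in the nucleus, rose from 1.64, 1.27 and 2.79 to 148, 141 and 130.3 TPM, mostly after day 1 (mean 8.91 TPM). The related binding protein *Crabp1* fell from 48.9, 52.2 and 55.5 to 27.5, 19.017 and 17.8 TPM.

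The receptors did not change as 1 group. *Rarg*, the RAR abundant in stem cells, fell from 100.8, 106 and 108 to 39.9, 45.2 and 45.1 TPM, −1.26 on the log2 scale (SE 0.07, limma adjusted p = 9.98e-06). *Rarb*, a direct target of the receptors, rose from 0.329, 0 and 0.371 to 14.97, 19.11 and 14.8 TPM, 3.82 on the log2 scale (SE 0.20, limma adjusted p = 6.10e-06). *Rara* was at 60.4, 59.5 and 64.2 TPM and at 63.4, 66.6 and 59.6 TPM, and its 2 groups overlapped. *Stra6* (the retinol uptake receptor), *Rdh10* and *Dhrs3* (retinol and retinal metabolism), *Aldh1a2* (the enzyme that makes RA), *Cyp26b1*, *Cyp26c1* and the receptor cofactor *Nrip1* rose as well. *Aldh1a1*, *Aldh1a3* and *Rxrg* did not reach the minimum for testing.

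Promoters bear on this group because RAR and RXR bind DR5 elements, direct repeats of a 6-letter receptor motif spaced by 5 bases. In the RefSeq promoters (250 bases before to 50 after each gene start, GRCm38.p6), searched on both strands, DR5 was found at 31 of 27025 genes (0.115%) and at 5 of the 11112 genes tested that have a promoter in the table (0.0450%). Of those 5, *Cyp26a1* and *Rarb* rose, *Cfap45* fell, and *Syndig1* and *Blvrb* did not pass the threshold. The 250 bases before the start of the first pair are shown 5′ to 3′ on the strand of the gene, with the DR5 match in capitals, since these are the genes of the group with an element in this window. A match is a description of letters, not a site.
Cyp26a1 (chr19:37697558-37697807, plus strand): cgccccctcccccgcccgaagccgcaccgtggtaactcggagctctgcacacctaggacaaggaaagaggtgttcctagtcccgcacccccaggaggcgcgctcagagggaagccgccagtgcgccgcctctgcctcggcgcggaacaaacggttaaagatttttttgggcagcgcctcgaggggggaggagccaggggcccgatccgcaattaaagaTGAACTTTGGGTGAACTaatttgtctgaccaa
Rarb (chr14:16575477-16575726, minus strand): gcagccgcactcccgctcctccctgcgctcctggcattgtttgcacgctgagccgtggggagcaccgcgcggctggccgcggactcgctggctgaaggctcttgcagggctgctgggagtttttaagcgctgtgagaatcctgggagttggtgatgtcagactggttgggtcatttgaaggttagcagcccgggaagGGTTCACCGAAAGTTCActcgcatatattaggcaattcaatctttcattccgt
The match lies 32 to 16 bases before the start of *Cyp26a1* and 53 to 37 bases before that of *Rarb*. Promoters without DR5 in this window include those of most genes that rose, since 2 of the 2094 called higher with a promoter held one (0.0955%). Elements farther from the start were not searched.

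The *Hox* genes, which assign position along the body axis, were mostly close to 0 at day 0. Of 39 genes, 30 were tested and 28 rose, with none lower. Since most passed the filter through day 3 alone, the count over all listed is the one to read, 28 of 39 both with the filter and without it, and the median log2 change was 2.72 over the 39 and 3.39 over the 30. Rises were called for 9 of 11 *Hoxa*, 10 of 10 *Hoxb*, 7 of 9 *Hoxc* and 2 of 9 *Hoxd* genes listed. *Hoxc12* and *Hoxd13* did not pass, at means of 1.40 and 1.40 TPM for *Hoxc12* and 1.79 and 4.18 TPM for *Hoxd13*. The summed level of all 39 genes was 22.6, 18.6 and 19.8 TPM at day 0, 353, 357 and 355 TPM at day 1 and 543, 628 and 576 TPM at day 3. The 28 calls were the same in number after quantile normalization and after scaling to an equal median.

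The clusters differed in when they came on. The *Hoxa* genes summed to 247 to 255 TPM at day 1 and to 244 to 263 TPM at day 3, so that their total was reached within a day, and 6 of the 9 tested had a higher mean at day 1 than at day 3. The *Hoxb* genes summed to 83.3 to 86.7 TPM at day 1 and to 185 to 221 TPM at day 3. The *Hoxc* genes were at 11.1 to 13.3 TPM at day 1 and at 104 to 133 TPM at day 3. The *Hoxd* genes stayed low, at 5.13 to 8.14 TPM and then at 9.57 to 10.8 TPM. These sums are levels, and no test was made between the clusters.

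*Hoxa5* had the largest change of the family, from 0.115, 0.446 and 0.116 TPM at day 0 over 83.3, 78.4 and 82.1 TPM at day 1 to 93.4, 95.3 and 84.5 TPM at day 3, 6.24 on the log2 scale (SE 0.15, limma adjusted p = 3.03e-07). *Hoxb1*, which marks the hindbrain and has well-known RA elements near it, had no reads at day 0, 3.01, 2.97 and 3.14 TPM at day 1 and 38.8, 43.1 and 40.9 TPM at day 3, at least 148-fold above day 0 at 3 reads per library. *Hoxb4* went from 0.0844, 0.326 and 0 to 33.4, 43.8 and 34.3 TPM. In all 3 the lowest day 3 library was far above the highest day 0 library. Genes at the 5′ ends of the clusters, which act in the posterior body, were mostly near 0, with *Hoxa11*, *Hoxa13*, *Hoxc11*, *Hoxd10*, *Hoxd11* and *Hoxd12* below the minimum for testing. *Hoxb13* was an exception, at 0.193 TPM on average at day 0 and 10.3, 15.9 and 9.55 TPM at day 3. Rises were also called for *Hoxa10*, *Hoxc10* and *Hoxc13*, each of at least 1.53 on the log2 scale. *Hoxd1*, *Hoxd3* and *Hoxd4*, from the other end of their cluster, were below the minimum too.

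**Figure D3:**
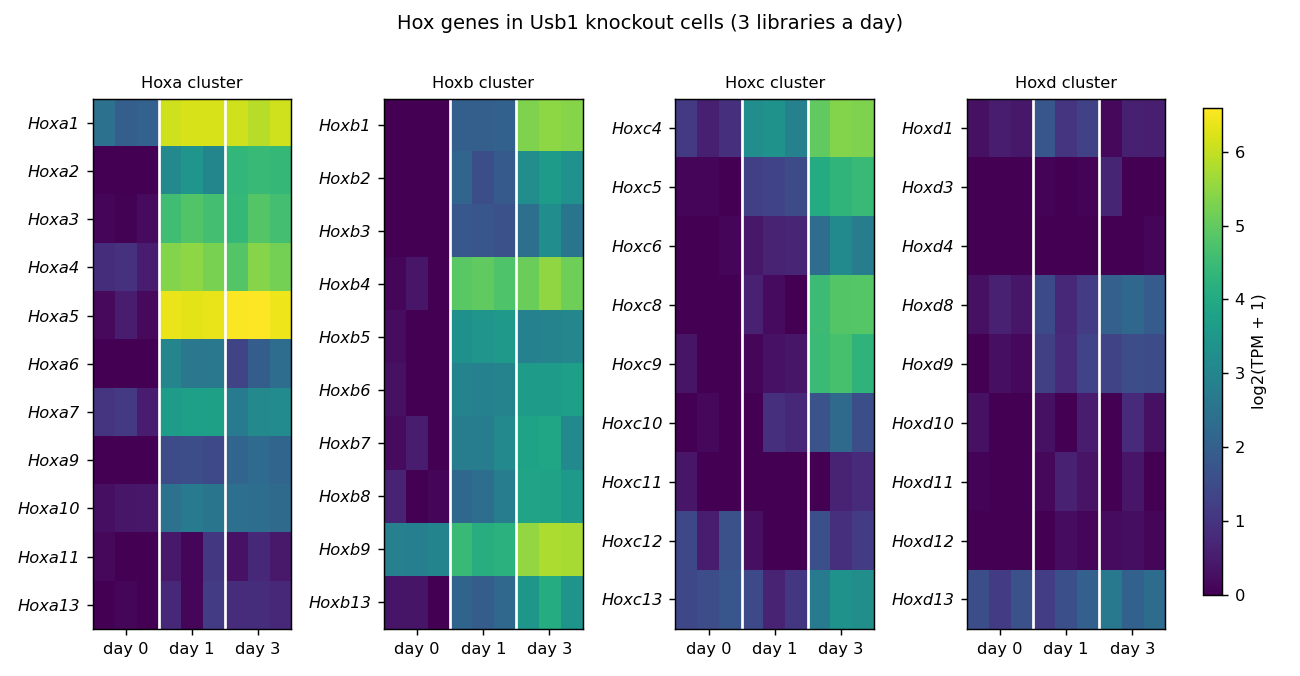
Level of the 39 *Hox* genes in the 9 *Usb1* knockout libraries, as log2(TPM + 1) by colour, with genes in rows by cluster and 3 libraries each at day 0, 1 and 3 in columns. *Hoxa* genes were bright from day 1, *Hoxc4* to *Hoxc9* brightened between day 1 and day 3, and *Hoxd* genes remained dark.

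The TALE proteins are partners of HOX proteins on DNA. Of 14 genes of the TALE homeobox and *Cdx* families, 13 were tested and 7 rose with none lower, at a median of 1.34 (1.07 for all 14 without the filter on low values). *Meis2*, a TALE cofactor, went from 0.180, 0.400 and 0.216 to 32.4, 36.4 and 40.9 TPM, and its relative *Meis1* from 0.391, 0.318 and 0.247 to 21.4, 27.6 and 28.5 TPM. The 2 days did not overlap for this pair, which also held for 12 of the 13 tested and for 65.4% of all genes tested. *Cdx1*, a direct RA target upstream of *Hox* genes, was at 5.43, 59.0 and 10.3 TPM on average at day 0, 1 and 3, highest at day 1, and its change over 3 days was under 2-fold.

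Of 14 nuclear receptors and other genes known to respond early to RA, 10 rose and 1 fell (median 2.27). *Zfp703*, a transcriptional repressor, went from 0.639, 0.0617 and 0.384 to 94.4, 105 and 94.9 TPM, and its relative *Zfp503* from 0.206, 0.0993 and 0.412 to 76.9, 94.1 and 76.3 TPM. The orphan receptor *Nr2f2* (COUP-TFII) went from 0.0251, 0.0243 and 0.126 to 47.0, 55.1 and 57.1 TPM. Timing differed between these 3, since *Zfp703* was at 29.8 TPM on average at day 1, while *Zfp503* and *Nr2f2* were at 0.870 and 0.258 TPM. The homeobox gene *Gbx2* fell from 75.4, 74.4 and 80.2 to 3.29, 2.51 and 3.03 TPM. After scaling to an equal median 8 of the 14 rose and 2 fell.

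Naive pluripotency genes fell with 1 exception. Of 20 naive pluripotency genes, all tested, 19 fell and none rose (median −3.17, against 0.07 over all genes), a count that held at 19 after both scalings. *Nr0b1* (Dax1), a corepressor bound to Oct4 and Nanog, fell from 307, 339 and 307 to 4.499, 3.15 and 3.29 TPM. *Tcl1*, a coactivator of AKT, fell from 170.2, 186 and 187 to 2.52, 1.23 and 2.31 TPM, and *Tdh*, which breaks down threonine in mouse stem cells, from 498, 521 and 535 to 9.48, 9.31 and 8.38 TPM. The stem cell markers checked above followed, with *Nanog* at 82.0, 86.3 and 93.3 TPM, *Esrrb* at 12.6, 16.8 and 13.4 TPM and *Zfp42* at 85.8, 96.7 and 89.8 TPM at day 3. The exception was *Tbx3*, at 153, 144 and 154 TPM at day 0 and 196, 241 and 215 TPM at day 3, a change under 2-fold.

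Naive genes did not fall at the same time, as the levels at day 1 show (given without a test). *Nanog* was at 1026 TPM on average at day 1, above its day 0 mean of 811 TPM, and *Dppa5a* was also above day 0 there. *Tdh* had by then fallen to 34.4 TPM, *Klf4* to 63.7 TPM from 295 TPM, and *Nr0b1* to 98.1 TPM.

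Of 20 core and formative pluripotency genes, 19 were tested, 13 fell and 2 rose (median −2.11, or −2.02 for all 20 without the filter on low values). *Pou5f1* fell from the values above to 90.7, 94.98 and 95.5 TPM, and its mean at day 1 was still 1103 TPM. *Etv4*, an ETS factor downstream of FGF, fell from 240.4, 248 and 243 to 5.68, 7.85 and 5.69 TPM and *Foxd3*, a forkhead factor of epiblast cells, from 91.7, 104 and 97.4 to 2.83, 2.94 and 2.20 TPM. *Sall2* rose from 2.35, 2.47 and 3.28 to 35.8, 39.8 and 41.7 TPM and the DNA methyltransferase *Dnmt3a* from 7.51, 7.70 and 8.20 to 22.7, 25.9 and 25.1 TPM. *Sall4*, *Lin28a*, *Dnmt3l* and *Trim71* changed by less than 2-fold. *Fgf5*, the formative marker, was not tested and had 0.173, 0.251 and 0.174 TPM at day 0 and 0.310, 1.37 and 0.936 TPM at day 3, whereas *Otx2* and *Pou3f1* fell.

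Regulators of primitive endoderm, the extraembryonic lineage that lines the yolk sac, rose together. Of 9 transcription factors and markers, 8 rose and none fell (median 3.75). *Foxa2*, a pioneer factor of endoderm, went from 0, 0.265 and 0 TPM at day 0 over 1.53 TPM on average at day 1 to 112, 127 and 103 TPM at day 3. All 3 day 3 libraries were above 100 TPM, and by reads day 3 was 1192 times day 0 (exact 95% interval 407 to 5781). *Gata6*, which is enough to direct stem cells to endoderm, went from 0.194, 0.300 and 0.272 to 48.4, 53.5 and 52.0 TPM, and *Foxq1* from 0.0447, 0 and 0.0896 to 35.0, 36.9 and 28.1 TPM. *Sox17* rose to a lower level, 13.5, 12.6 and 10.4 TPM at day 3, and *Gata4* to 25.9, 30.5 and 21.4 TPM. The gene that did not pass was *Hnf4a*, at 1.00, 1.93 and 1.23 TPM at day 3. In bulk RNA, more cells of a type and more RNA in each cell cannot be told apart.

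Products of visceral and parietal endoderm rose as well, 16 of 19 tested with 1 lower (21 listed, median 2.32, or 2.26 unfiltered). *Plat*, tissue plasminogen activator, which parietal endoderm secretes, went from 0.486, 0.470 and 0.383 to 76.6, 83.0 and 75.3 TPM. *Col4a1* and *Col4a2*, the chains of the main collagen of basement membranes, went from 31.7, 31.9 and 30.4 to 992, 1302 and 962 TPM and from 15.9, 12.2 and 12.6 to 661, 865 and 613 TPM. Every day 3 library was far above day 0 for both chains. *Ttr*, the transthyretin of visceral endoderm, had no reads at day 0 or day 1 and 34.2, 28.6 and 24.8 TPM at day 3, and *Afp* had 3.79, 4.26 and 3.98 TPM. *Apoe* fell from 652, 708 and 673 to 302, 289 and 189 TPM. *Nid1* and *Hspg2*, 2 further basement membrane genes, did not pass.

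Of 5 keratins of simple epithelia and stem cells, *Krt7*, *Krt8*, *Krt18* and *Krt19* rose and *Krt42* fell. *Krt19* went from 6.54, 9.82 and 7.84 to 413, 380.2 and 336 TPM, with a mean of 3.50 TPM at day 1, and *Krt42* from 58.2, 70.0 and 56.1 to 5.16, 2.45 and 2.77 TPM. The summed level of the 5 was 144 to 165 TPM at day 0, 136 to 146 TPM at day 1 and 4949 to 5919 TPM at day 3, so that the rise of the sum fell between day 1 and day 3.

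Mesodermal and mesenchymal genes rose in 12 of 15 tested with none lower (21 listed, median 2.37, or 1.89 unfiltered). Beside *Acta2*, *Foxf1*, a factor of lateral and visceral mesoderm, went from 0.179, 0 and 0.180 to 70.8, 79.8 and 74.2 TPM, and *Hand1*, which acts in heart, lateral mesoderm and trophoblast, from 0.434, 0 and 0 to 59.2, 65.9 and 69.5 TPM. Both were at or below 0.2 TPM on average at day 1. The markers of the primitive streak did not follow. *T* (Brachyury) was at 0.187, 0.362 and 0.938 TPM at day 0 and 0, 0.295 and 0 TPM at day 3 and was not tested, *Msgn1* had no reads on either day, and *Mixl1*, *Eomes* and *Tbx6* did not pass.

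Of 18 genes of the epithelial to mesenchymal transition, all tested, 11 rose and 1 fell (median 1.28, and 9 rose after scaling to an equal median). Both sides of the transition were among the rises. *Cdh2*, N-cadherin, went from 0.725, 0.882 and 0.780 to 37.7, 40.4 and 40.1 TPM and the transcription factor *Snai2* from 0.214, 0.621 and 0.537 to 7.09, 5.29 and 10.1 TPM, and the tight junction gene *Cldn6* from 13.7, 16.1 and 12.6 to 209.9, 244 and 189 TPM. *Cdh1*, E-cadherin, was at 434, 415 and 380.0 TPM and then at 552, 636 and 594 TPM, higher in every day 3 library at under 2-fold. *Grhl2*, an epithelial factor, fell from 7.39, 7.80 and 7.81 to 2.92, 2.09 and 3.63 TPM.

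Collagens other than type IV rose in 11 of 12 tested (13 listed, median 2.84, or 2.63 unfiltered). *Col12a1* had no reads at day 0 and 14.5, 22.2 and 22.5 TPM at day 3, at least 467-fold higher at 3 reads per library. *Col5a2* went from 0.0452, 0.109 and 0.0453 to 17.02, 19.9 and 18.8 TPM and *Col1a1*, a chain of the fibrillar collagen of connective tissue, from 1.82, 1.34 and 1.36 to 36.4, 43.9 and 37.3 TPM.

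Neural genes were divided. Of 22 listed, 12 were tested, 5 rose and 3 fell (median 0.57, or 0.27 unfiltered), beside 16.6% and 9.56% of all genes tested. *Irx3*, a homeobox gene of neural and mesodermal patterning, went from 0.0784, 0.531 and 0.629 to 84.7, 82.0 and 67.3 TPM. *Sox4* went from 8.99, 7.42 and 7.70 to 146, 229.7 and 163 TPM and *Nes* (nestin, an intermediate filament of progenitors) from 7.70, 8.55 and 9.27 to 105, 124 and 106 TPM. These 3 are also expressed outside the nervous system. *Sox1*, an early marker of neural progenitors, fell from 12.8, 15.03 and 12.8 to 3.17, 4.10 and 2.99 TPM after a mean of 26.7 TPM at day 1, the neuronal tubulin *Tubb3* fell from 113, 113 and 122 to 24.7, 26.1 and 28.2 TPM, and *Ina* from 20.6 to 5.48 TPM on average. *Pax6* was at 0.662, 0.681 and 1.04 TPM at day 3 and untested, and *Neurog1* had no reads in any library.

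Among 18 genes of meiosis and the germline, 17 were tested, 8 rose and 2 fell (median 0.86, or 0.63 unfiltered). The falls are near the 9.56% of all genes tested that fell, and 16.6% of all rose. *Rec8*, a cohesin of meiosis, went from 14.6, 15.3 and 19.4 to 259, 257 and 240.1 TPM, *Meioc* from 5.49, 5.17 and 5.27 to 52.6, 51.8 and 65.9 TPM, and the X-linked homeobox gene *Rhox6* from 6.86, 10.4 and 7.31 to 75.2, 76.9 and 78.4 TPM. *Stra8*, which RA induces at the start of meiosis, was at 10.3 TPM on average at day 0, at 396 TPM at day 1 and 209, 221 and 225 TPM at day 3. *Tdrd12* fell from 10.8, 10.5 and 12.4 to 0.893, 2.099 and 1.67 TPM and *Hormad1* from 7.64, 7.39 and 5.90 to 0.112, 1.58 and 1.48 TPM.

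Markers of cells that could have been carried along were measured beside these groups. Of 7 fibroblast markers, 5 were tested and 4 rose (*Col1a1*, *Col1a2*, *Col3a1* and *Dcn*), and *Col1a1* was the most abundant. Their summed level was 9.01, 6.96 and 8.50 TPM at day 0 and 71.7, 80.3 and 74.5 TPM at day 3. *Dcn*, *Postn* and *Lum* had no reads at day 0, and *Thy1* was at 7.16, 5.52 and 7.10 TPM at day 0 and 3.04, 2.96 and 3.62 TPM at day 3. Of 6 trophoblast markers, 5 were tested and *Gata3*, *Krt7* and *Cdx2* rose, *Gata3* from 0.163, 0.0526 and 0.0546 to 70.4, 69.4 and 75.0 TPM. The trophoblast markers summed to 38.1, 35.9 and 36.5 TPM at day 0 and to 120.8, 118.3 and 123.1 TPM at day 3, with *Elf5*, which defines the trophoblast stem cell, at 0 in all day 0 libraries and in 2 of 3 day 3 libraries. None of the 6 markers of 2-cell-like cells reached the minimum, with sums of 0.396 to 0.653 TPM at day 0 and 1.46 to 2.31 TPM at day 3, *Zscan4d* being the most abundant. The part of these 3 marker groups in the results was not tested.

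Of 12 genes of LIF signalling, which holds mouse stem cells in self-renewal, 11 were tested, 5 fell and 1 rose (median −0.56, or −0.27 unfiltered). Of all genes tested 9.56% fell and 16.6% rose. A change of LIF in the medium cannot be told apart from RA here. *Socs3*, the feedback inhibitor induced by STAT3, fell from 249, 232 and 252 to 22.3, 31.7 and 28.0 TPM, and its mean at day 1 was already 11.8 TPM. *Bcl3* fell from 163, 152 and 166 to 21.2, 23.8 and 22.9 TPM and *Socs2* from 17.7, 17.3 and 16.9 to 2.24, 1.79 and 1.79 TPM. The targets thus fell in every library while the receptor genes *Lifr* and *Il6st* overlapped between the days. The kinase *Jak2* rose from 4.09, 3.66 and 4.14 to 28.1, 28.2 and 31.6 TPM.

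Genes of FGF signalling and its ERK feedback were divided, 4 rising and 7 falling among 16 tested, beside 16.6% and 9.56% of all genes tested. The median was −0.42 over these 16 and 0.11 over all 19 listed without the filter on low values, so its sign depends on the filter. *Fgf4*, the autocrine ligand of stem cells, fell from 277, 264 and 262 to 11.5, 10.8 and 9.26 TPM, and the feedback inhibitor *Spry4* from 94.5, 94.2 and 106 to 2.07, 2.73 and 3.48 TPM. *Etv4*, given above, is another target of the pathway. The receptor *Fgfr2* rose from 0.545, 0.405 and 0.757 to 37.0, 44.1 and 41.1 TPM, *Fgfr1* from 62.1, 52.3 and 53.8 to 153, 180.2 and 158 TPM, and the ERK phosphatase *Dusp4* from 6.64, 7.56 and 8.56 to 47.8, 63.9 and 61.2 TPM. *Spred1*, *Spry1*, *Dusp6* and *Il17rd*, also feedback inhibitors, changed by less than 2-fold.

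In the Nodal and activin pathway 5 of 14 tested fell and 4 rose (16 listed, median −0.15, or −0.10 unfiltered), beside 9.56% and 16.6% of all genes tested. After scaling to an equal median 6 fell and 2 rose. The falls were of the ligands, inhibitors and co-receptor *Inhbb*, *Tdgf1*, *Gdf3*, *Lefty1* and *Lefty2*. *Gdf3* fell from 212, 210.3 and 193 to 20.5, 22.5 and 17.3 TPM, whereas *Lefty1* passed through 1204 TPM on average at day 1, above its day 0 mean of 386 TPM. Among the rises, the transducer *Smad3* went from 13.3, 11.3 and 13.7 to 37.7, 41.5 and 43.6 TPM.

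The BMP list had 11 rises and no fall among 17 tested (19 listed, median 1.38, or 1.22 with 12 rises unfiltered, with 9 rises and 1 fall after scaling to an equal median). *Msx2*, a homeobox target of BMP, went from 0.661, 0.766 and 0.331 to 62.1, 75.3 and 63.1 TPM, *Msx1* from 0.350, 0.338 and 0.140 to 15.5, 15.9 and 14.4 TPM, and the decoy receptor *Bambi* from 5.42, 6.52 and 7.06 to 97.6, 97.1 and 93.7 TPM. The targets *Id1*, *Id2* and *Id3* and the inhibitor *Smad6* rose too, whereas the ligand *Bmp4* was at 98.8 TPM on average at day 0 and 59.2 TPM at day 3, under 2-fold lower.

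Of 25 Wnt genes, 23 were tested, 14 rose and 3 fell (median 1.56, or 1.54 unfiltered), beside 16.6% and 9.56% of all genes tested. *Dkk1*, a secreted inhibitor of the pathway, went from 0, 0 and 0.268 to 145, 129.5 and 147 TPM, 1509.9 times by reads (exact 95% interval 516 to 7324). The receptor *Fzd2* rose from 12.5, 10.1 and 9.72 to 365, 387 and 333 TPM and the ligand *Wnt4* from 0.155, 0.0998 and 0.311 to 12.9, 12.2 and 10.3 TPM. *Fzd5*, the receptor prominent in stem cells, fell from 206, 172 and 177 to 18.7, 22.3 and 19.14 TPM, *Sfrp1* from 294, 248 and 259 to 66.0, 72.6 and 70.5 TPM, and *Wnt3a* from 1.64 to 0.0257 TPM on average. Receptors thus changed in both directions. No library crossed between the days for these 6, which also held for all 23 tested and for 65.4% of all genes tested.

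Insulin-like growth factor genes rose in 9 of 12 tested with none lower (13 listed, median 2.92, or 2.53 unfiltered). *Igf2*, an imprinted growth factor, went from 0.0379, 0.183 and 0 to 31.3, 52.5 and 48.0 TPM, and *Igfbp3* from 12.8, 12.8 and 10.4 over a day 1 mean of 69.3 TPM to 255, 269 and 274 TPM. Of the 3 that did not pass, all are RNA-binding proteins (*Igf2bp1*, *Igf2bp2* and *Igf2bp3*).

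Imprinted genes, which are expressed from 1 parental copy, rose in 13 of 21 with none lower (median 1.71, and 12 rises with 1 fall after scaling to an equal median). *Dlk1*, a Notch-like inhibitor of differentiation, went from 2.49, 2.81 and 1.96 to 259, 266 and 216 TPM. *Peg3*, a zinc finger gene, went from 12.7, 13.2 and 13.4 to 527, 736 and 778 TPM, and its neighbour *Zim1* from 1.53, 1.17 and 1.48 to 74.7, 107 and 119.8 TPM. Summed over the 21, the level went from 942 to 984 TPM at day 0 and 994 to 1030.0 TPM at day 1 to 3540.0 to 4512 TPM at day 3. TPM does not separate the parental copies, so imprinting itself was not measured.

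Of all genes tested, 16.6% rose and 9.56% fell. In the cell cycle list of 21, 6 rose and 3 fell (median −0.26, with 5 in each direction after scaling to an equal median). The rises were mainly of inhibitors. *Cdkn2b* (p15) went from 3.12, 2.41 and 1.09 to 69.4, 67.8 and 61.7 TPM and *Cdkn2a* (p16 and p19 ARF) from 16.1, 17.3 and 16.7 to 158, 166 and 138 TPM, while cyclin D2 (*Ccnd2*) went from 5.62, 6.23 and 7.27 to 54.4, 70.2 and 75.2 TPM. The falls were of G1 cyclins. *Ccnd3* fell from 254, 261 and 265 to 59.0, 61.1 and 59.8 TPM, *Ccnd1* from 97.5, 101.2 and 103 to 23.2, 21.7 and 23.7 TPM and *Ccne1* from 336, 368 and 341 to 98.6, 105 and 103 TPM. In the Myc and Lin28 list of 12, 3 rose and 2 fell (median 0.00), beside 16.6% and 9.56% of all genes tested. *Mycn* fell from 175, 183 and 202 to 38.4, 41.8 and 35.1 TPM and *Hmga1* from 403 to 107 TPM on average, *Mxd4*, a Myc antagonist, rose from 1.79, 1.60 and 1.66 to 44.5, 50.7 and 47.2 TPM, and *Myc* itself overlapped between the days.

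Of 11 DNA methylation genes, 4 fell and 2 rose (median −0.24), beside 9.56% and 16.6% of all genes tested. The oxidases *Tet1* and *Tet2* fell, *Tet1* from 203, 168 and 167 to 11.7, 16.3 and 17.4 TPM and *Tet2* from 79.5, 64.6 and 70.9 to 11.3, 18.2 and 17.8 TPM, and *Tet3* rose from 5.02, 4.29 and 4.29 to 16.1, 25.6 and 24.9 TPM. *Dnmt3b* fell from 76.7, 80.9 and 80.5 to 24.2, 30.5 and 32.1 TPM while *Dnmt3a* rose, as given above. Among 18 Polycomb genes 3 rose and 1 fell (median −0.34), close to the 16.6% of all genes tested that rose and below the 9.56% that fell, and 3 rose and 5 fell after scaling to an equal median, so the direction of this list depends on scaling. *Bmi1* went from 7.52, 6.11 and 6.12 to 36.3, 45.5 and 50.6 TPM, and *Cbx8* from 1.32 to 10.9 TPM on average. *Epop*, a PRC2 cofactor of stem cells, fell from 954 to 302 TPM on average.

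Metabolic lists ranged from strong to slight change. Of 14 genes of threonine, glycine and one-carbon metabolism, 9 fell and none rose (median −1.38). Beside *Tdh*, the mitochondrial folate enzyme *Mthfd2* fell from 113, 109.6 and 111 to 16.1, 14.9 and 19.5 TPM and *Psat1*, of serine synthesis, from 304, 317 and 309 to 60.5, 54.6 and 59.1 TPM. The fall in *Mthfd2* came after day 1 (mean 139 TPM), whereas *Tdh* was already low by then. Of 23 genes of glycolysis and glucose uptake, 2 rose and 3 fell (median 0.15, with 5 falls after scaling to an equal median). Of all genes tested 16.6% rose and 9.56% fell, so these counts do not set the list apart. *Bnip3*, a mitophagy receptor induced in hypoxia, rose from 4.49, 3.05 and 6.32 to 33.4, 31.8 and 37.2 TPM and lactate dehydrogenase B (*Ldhb*) from 105, 108 and 107 to 348, 306 and 292 TPM, and the phosphofructokinase *Pfkp* fell from 43.3, 36.9 and 43.9 to 11.1, 15.9 and 14.8 TPM. *Gapdh* has many near-identical pseudogenes that may share its reads, so its call is uncertain. Of 22 genes of cholesterol synthesis, 1 fell (*Pmvk*, from 94.98 to 44.0 TPM on average) and none rose, at a median of 0.01.

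Of 16 genes of U6 snRNA maturation and binding, including *Tut1*, *Larp7* and the LSM ring, none was called in either direction by limma, although 12 had an adjusted p under 0.05, and the same number an unadjusted one, with changes of less than 2-fold. All 12 were lower at day 3, and by the adjusted p alone 58.9% of all genes tested passed, and 25.1% passed and were lower. Their median was −0.45, and 2 fell after scaling to an equal median, while voom on recovered reads called none. Of 20 p53 targets, 4 rose and none fell (median 0.49), close to the 16.6% of all genes tested that rose. *Fas* went from 0.241, 0.581 and 0.241 to 4.62, 6.57 and 8.50 TPM, *Trp53inp1* from 76.8, 64.6 and 72.6 to 167, 193 and 238 TPM and *Ccng1* from 245, 231 and 228 to 554, 535 and 676 TPM, and the fourth was *Sesn1*. Of 25 cytosolic ribosomal protein genes, 1 fell (*Rpl39l*, from 11.9 to 2.52 TPM on average) and none rose, beside 9.56% and 16.6% of all genes tested. Many of these genes have processed pseudogenes that may share their reads. Of the 4 members of the family of *Pmp22* and the EMP proteins, *Pmp22*, *Emp2* and *Emp3* rose and *Emp1* fell, the last from 67.1, 55.9 and 53.7 to 21.5, 21.4 and 25.9 TPM.

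**Figure D4:**
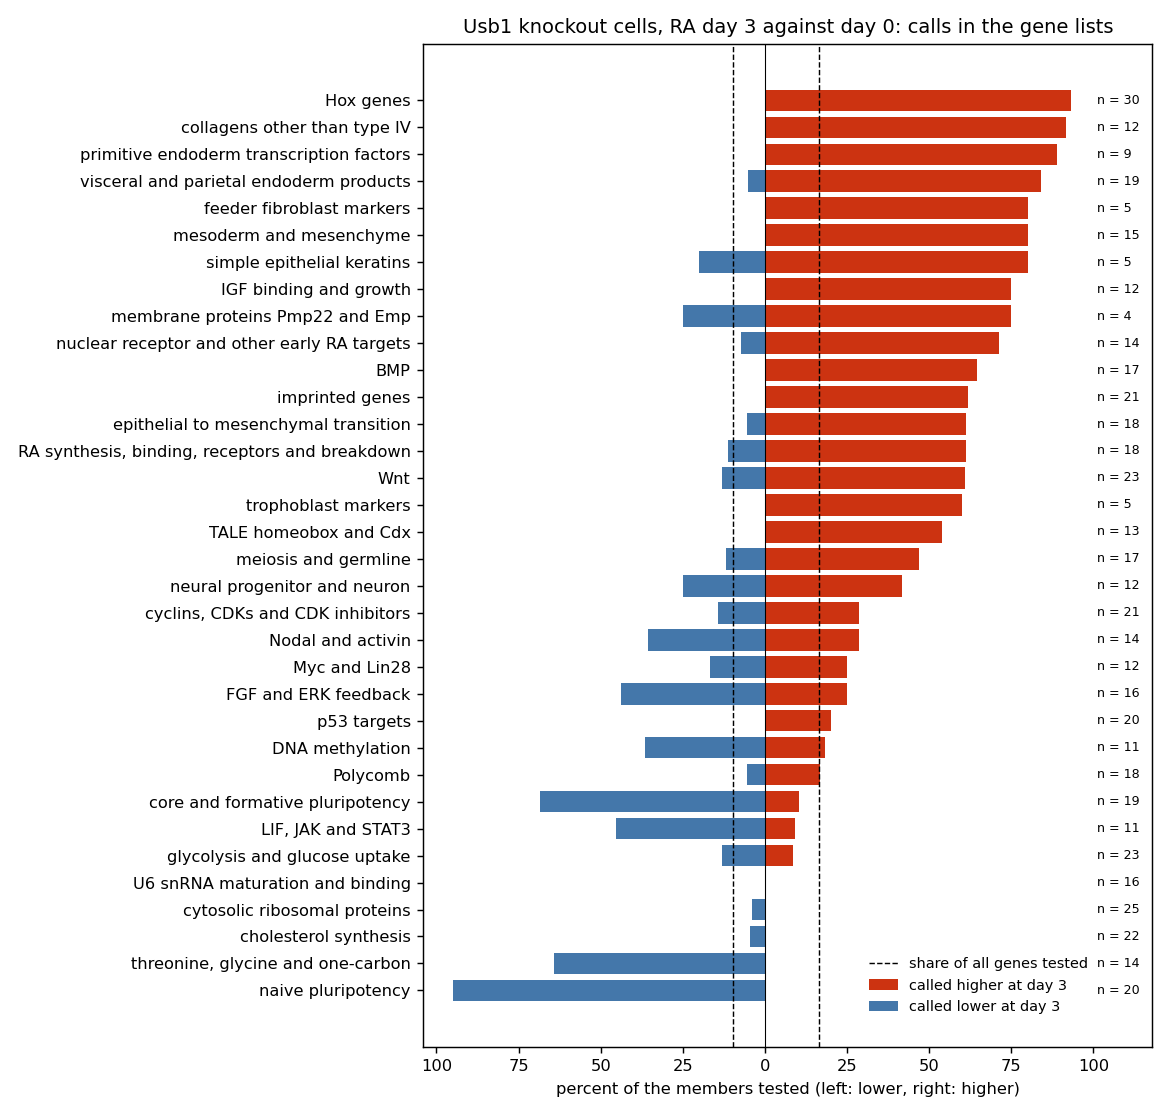
Percent of the tested members of each gene list called higher (red, to the right) or lower (blue, to the left) at day 3 against day 0 in *Usb1* knockout cells, with the number of members tested at the right edge; dashed lines mark the shares of all genes tested, 16.6% higher and 9.56% lower. *Hox* genes (28 higher of 30 tested and 39 listed) and naive pluripotency genes (19 of 20 lower) lie at the ends.

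Whether wild-type cells responded in the same way was tested directly, as the difference between the change from day 0 to day 3 in knockout and in wild-type cells (limma interaction in a fit on all 17 libraries, same genes). These genes had passed the TPM filter in the knockout libraries, so genes expressed only in wild-type cells were not tested. A difference past an adjusted p of 0.05 and 2-fold was found for 499 genes, 2.82% of those tested, with the knockout response more positive for 240 (1.35%) and more negative for 259 (1.46%). The number depends on wild-type day 0, which has 2 libraries, of which replicate 1 holds only 239 genes of a single read against 1352 in replicate 2. Without replicate 1 the count was 338 (244 of them among the 499), and without replicate 2 it was 1749. After scaling to an equal median, 180 differences were positive and 352 negative, and after quantile normalization 310 and 222. Positive here means a larger rise or a smaller fall in the knockout.

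The FGF and ERK feedback list held the most differences of the lists described, with 9 of 16 tested more positive in the knockout and none more negative. This list, like the others, was drawn up with earlier results of these data known. *Dusp6*, an ERK phosphatase, was at 69.8, 69.8 and 77.3 TPM at day 0 and 51.0, 58.9 and 55.9 TPM at day 3 in the knockout, and at 111 and 99.2 and then at 16.1, 17.5 and 17.6 TPM in wild-type cells. Its log2 change was −0.38 in knockout and −2.55 in wild-type cells, a difference of 2.17 (SE 0.11, limma adjusted p = 7.38e-08). *Spry2* went from 247, 240.4 and 255 to 73.5, 79.5 and 77.1 TPM in knockout cells and from 283 and 302 to 36.5, 35.3 and 34.5 TPM in wild-type cells. *Il17rd* had 23.3, 18.8 and 19.4 TPM at day 0 and 19.005, 25.1 and 22.5 TPM at day 3 in knockout cells, which overlapped, and went from 34.5 and 29.8 to 8.83, 7.29 and 8.59 TPM in wild-type cells. *Fgf4*, which fell in both, ended at 11.5, 10.8 and 9.26 TPM in the knockout and at 3.45, 1.98 and 3.27 TPM in wild-type cells. *Etv4*, *Etv5*, *Spry1*, *Spry4* and *Spred1* were the others. In these 9 the day 3 libraries of the knockout lay above all those of wild-type cells. The count was 9 without wild-type day 0 replicate 1, 10 with 1 negative without replicate 2, and 8 after scaling to an equal median, where the difference of *Spry1* was 0.99.

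Among naive genes, 4 of 20 differed positively and 2 negatively. *Nanog* ended at 82.0, 86.3 and 93.3 TPM in knockout cells, and in wild-type cells it went from 803 and 836 to 23.5, 24.2 and 20.2 TPM, a difference of 1.92 (SE 0.10, limma adjusted p = 7.85e-08). *Esrrb* ended at 12.6, 16.8 and 13.4 TPM against 3.82, 3.49 and 3.18 TPM, and *Prdm14* and *Gbx2* differed in the same direction. All 4 fell in both genotypes, and the fall was smaller in the knockout. *Tdh* went the other way, at 9.48, 9.31 and 8.38 TPM in knockout and 16.9, 25.6 and 20.1 TPM in wild-type cells at day 3. *Dppa3* was negative too, at 3.89, 5.63 and 4.38 TPM at day 0 and 0, 1.02 and 0 TPM at day 3 in the knockout and below 1 TPM in every wild-type library, and that call is lost without wild-type day 0 replicate 1 (limma adjusted p = 0.0658). The call of *Gbx2* is lost without wild-type day 3 replicate 3, where its difference was 0.97, under 2-fold. Of the core and formative genes 4 were positive, among them *Tdgf1*, *Etv4* and *Etv5*.

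The 4 endoderm genes that differed had lower levels in the knockout at day 3. *Sox17* reached 13.5, 12.6 and 10.4 TPM in knockout and 40.0, 40.3 and 38.6 TPM in wild-type cells, a difference of −1.47 (SE 0.22, limma adjusted p = 0.00145). *Gata4* reached 25.9, 30.5 and 21.4 TPM against 81.7, 88.8 and 92.7 TPM, but its difference is not past the threshold without wild-type day 0 replicate 1 (limma adjusted p = 0.202) or in a fit on the 11 libraries of day 0 and day 3 (0.128). *Ttr* reached 34.2, 28.6 and 24.8 against 81.7, 80.1 and 67.2 TPM and *Lama1*, a laminin chain, 339, 423 and 353 against 1114, 985 and 1265 TPM. *Sox17*, *Gata4* and *Ttr* were near 0 at day 0, so their differences depend on the pseudocount. With 0.1 in place of 1 they were −0.96, −1.02 and −0.64 (limma adjusted p of 0.401, 0.305 and 0.496), and voom on recovered reads did not call them either, whereas the call for *Lama1* was kept. *Ttr* was also not called after quantile normalization (−0.80). The call of *Gata4* was also lost without knockout day 0 replicate 1, without knockout day 3 replicate 1 or 3, and without any 1 wild-type day 3 replicate. *Foxa2* and *Gata6*, described above, did not differ past the threshold (−0.48 and −0.04, limma adjusted p of 0.182 and 0.898), which does not show that the genotypes respond alike. *Hox* genes held 2 positive and 1 negative calls of 30, and under the other settings between 0 and 2 positive and 0 and 4 negative.

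Outside the lists, the largest positive difference of a protein-coding gene with a mean of at least 20 TPM in 1 of the 4 groups was that of *Tgfbi*, an extracellular matrix protein, which rose from 19.3, 14.1 and 16.1 to 77.7, 73.6 and 72.1 TPM in knockout cells and was at 45.1 and 49.1 and then at 25.4, 21.7 and 21.9 TPM in wild-type cells. The directions were opposite, and the difference was 3.12 (SE 0.15, limma adjusted p = 6.86e-08). *Serpinb6c*, a serine protease inhibitor, fell from 64.6, 64.9 and 71.0 to 13.2, 8.84 and 8.11 TPM in knockout cells and was at 2.41 and 7.95 TPM and then at 23.3, 25.8 and 21.8 TPM in wild-type cells. *Plaur*, the urokinase receptor, had 37.2, 45.5 and 41.6 TPM at day 0 and 39.0, 44.4 and 33.7 TPM at day 3 in the knockout, overlapping between the days, and went from 16.4 and 21.1 to 80.9, 75.2 and 69.7 TPM in wild-type cells.

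**Figure D5:**
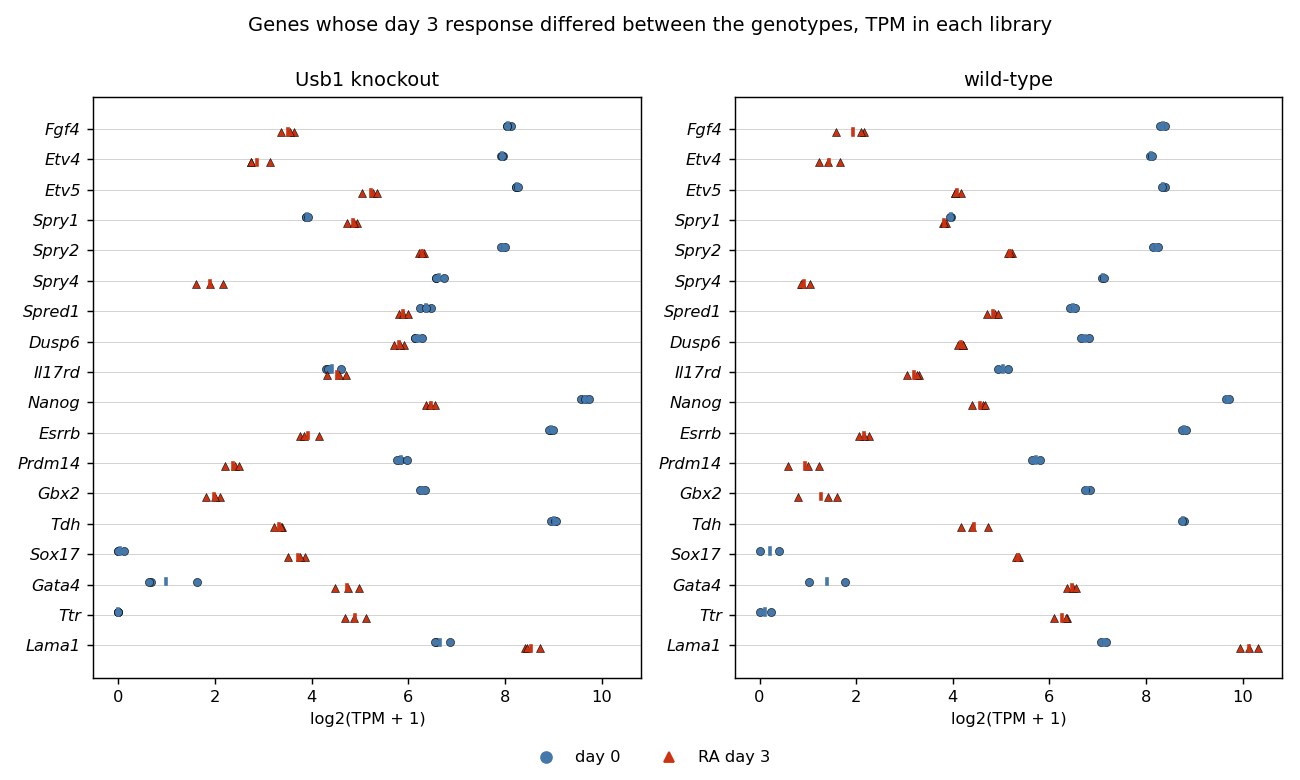
log2(TPM + 1) in each library at day 0 (circles) and day 3 of RA (triangles) in *Usb1* knockout (left, 3 libraries a day) and wild-type cells (right, 2 libraries at day 0 and 3 at day 3) for genes of the FGF and ERK feedback, naive and endoderm lists chosen for a called difference; vertical ticks are means. *Dusp6* and *Il17rd* changed by −0.38 and 0.11 in the knockout and by −2.55 and −1.84 in wild-type cells, and *Sox17*, *Gata4*, *Ttr* and *Lama1* ended higher in wild-type cells.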

How the data were processed

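R1/E mouse embryonic stem cells, wild-type or *Usb1* knockout (line KO-1), were sampled at day 0 and after 1 or 3 days of RA. Libraries (NEBNext Ultra, Illumina NovaSeq) were made by the authors, who computed the deposited TPM values from gene length and the reads counted per gene. HISAT2 2.1.0 and StringTie 1.3.6 and the build GRCm38.p6 are named in the submitters' processing notes, while the counting setting and its use of strand are not given in the sources used here. Reads from a gene and an antisense partner may therefore be mixed. No count table was used here, so TPM was tested on a log scale. All 54532 genes of the deposited table were read, with 0 columns left without a sample.

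Reads were recovered as TPM times the exon length in GENCODE M21, divided by the value of 1 read in the library. They came out whole, within 0.01, for 96.3% to 96.7% of values in the 6 libraries, and served for depth, ratios and 1 alternative, a test of reads with voom. Depth and intervals cover counting error only.

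Genes reaching a TPM of 1 in 3 or more of the 6 knockout libraries of day 0 and day 3 were compared on log2(TPM + 1) with limma 3.58.1 (R 4.3.3), with a variance trend and no covariate. A call needed a 2-fold change or more and a Benjamini-Hochberg adjusted p under 0.05. The difference between the genotypes was the interaction in a fit on all 17 libraries over the same genes. The fit was tested on simulated data. A gene with no reads at day 0 was given a fold of at least day 3 over 3 reads per library, and for 1 to 3 reads the ratio of reads was given with an exact 95% interval. Nothing states that the replicates came from separate thaws or days, so p-values measure the spread between these samples.

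The 35 lists (563 genes), the comparison and the tests were chosen with earlier results of these data known, and support nothing beyond their counts. Named were the 12 largest rises and falls in log2 fold change (called, not overlapping, at least 20 TPM at the higher day), the 5 largest gains and losses in TPM, for each list up to 3 called rises and 3 falls with values and others by name, the 6 largest differences between the genotypes in each direction (at least 20 TPM in 1 of the 4 groups), and *Usb1*. Further genes given with values were chosen after their values were seen: day 1 values, stem cell markers at day 3, *Rarb* and *Rara*, *Cdx1*, *Stra8*, *Cdh1*, *Fgf5*, *T*, *Pax6*, *Hoxb13*, *Bmp4*, *Lefty1*, *Ttr*, *Afp*, *Hnf4a*, *Thy1* and those that differed between the genotypes. A few genes that the rule selects are not reported here.

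Alternatives were a pseudocount of 0.1, no filter or a TPM of 5, another fold, quantile normalization, an equal median, a robust variance model, all 17 or 11 libraries, a replicate block, leaving out each library, voom on recovered reads and protein-coding genes alone. Counts within lists, gene types and chromosomes under these settings were added after seeing the data. Tables and figures were made with Python 3.11.15, numpy 2.4.6, pandas 2.3.3, scipy 1.17.1 and matplotlib 3.10.9.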

Additional observations from a re-analysis of the deposited data

Results flagged for a closer look

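The results listed here were picked out because the change from day 0 to day 3 differed between knockout and wild-type cells by the interaction test (limma, adjusted p under 0.05 and at least 2-fold). Each value is the log2 change in the knockout minus that in wild-type cells. Among the naive, core and formative, FGF and endoderm genes, those reported with a more positive response in the knockout were *Nanog* (1.92), *Esrrb* (1.59), *Prdm14* (1.298), *Gbx2* (1.20), *Tdgf1* (1.28), *Etv4* (1.60), *Etv5* (1.25), *Fgf4* (1.85), *Spry1* (1.08), *Spry2* (1.33), *Spry4* (1.44), *Spred1* (1.18), *Dusp6* (2.17) and *Il17rd* (1.95). Those with a more negative response were *Dppa3* (−2.61), *Tdh* (−1.36), *Gata4* (−1.32), *Sox17* (−1.47), *Ttr* (−1.24) and *Lama1* (−1.13). Of the 510 genes of the 35 lists that were tested, 37 differed positively and 14 negatively. Over all 17726 genes tested these numbers were 240 (1.35%) and 259 (1.46%). The lists were drawn up with earlier results of these data known, so these counts carry no test of the lists. Over all genes, 180 differences were positive and 352 negative after scaling to an equal median. After quantile normalization these numbers were 310 and 222.

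Among genes with a mean of at least 20 TPM in 1 of the 4 groups, the largest positive differences reported were those of *Mir1967* (4.90), *Tgfbi* (3.12), *Mir483* (2.90), *R3hdml* (2.85) and *Gm24095* (2.61). The largest negative ones were those of *Serpinb6c* (−4.80), *Mir1950* (−4.41), *Gm24325* (−4.36), *Gm12854* (−2.70), *Crb3* (−2.08) and *Plaur* (−2.04). *Crb3*, a polarity protein of epithelia, had 3.19, 4.28 and 4.72 and then 25.4, 24.2 and 18.9 TPM in the knockout and 0 and 1.44 and then 33.2, 35.1 and 23.4 TPM in wild-type cells.

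Of the differences named here, 7 were not called without wild-type day 0 replicate 1, the library with the fewest genes of 1 read (*Mir483*, *Mir1967*, *Mir1950*, *Gm24325*, *Crb3*, *Dppa3* and *Gata4*, limma adjusted p of 0.111, 0.0853, 0.183, 0.102, 0.0591, 0.0658 and 0.202), and the others kept their call. In a fit on the 11 libraries of day 0 and day 3, 5 were not called (*Mir483*, *Mir1967*, *Mir1950*, *Tdgf1* and *Gata4*). The 3 miRNA genes and *Gm24325* are short, and few reads lie behind their values. With a pseudocount of 0.1, *Mir483*, *Gata4*, *Sox17* and *Ttr* were not called. By voom on recovered reads 8 were not called, namely those 4 with *Gm24095* (adjusted p = 0.0522), *Mir1967*, *Mir1950* and *Gm24325*. After quantile normalization *Gm24325* and *Ttr* were not called, and after scaling to an equal median *Spry1* was not. Leaving out 1 knockout or wild-type day 3 library lost 1 to 4 calls. The calls lost in this way were of *Mir483*, *Mir1950*, *Gm24325*, *Gata4* and *Gbx2*.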

How the results depend on the processing

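The 4632 calls became 10445 with an adjusted p alone and 1458 with a 4-fold minimum. Leaving out 1 library gave 4539 to 4697. The remaining settings gave 3337 to 5338, the lowest with a TPM filter of 5 and the highest by voom. The share of calls that were higher at day 3 was 63.4%, 52.5% after quantile normalization and 44.1% after scaling to an equal median, which moved the median of all genes by −0.14 and −0.28 on the log2 scale. Among the named genes 29 lost a call under some setting, mostly at 4-fold. The log2 fold change of Usb1, 0.09 and not called, reversed to −0.16 after quantile normalization, −0.19 after scaling to an equal median and −0.0197 without knockout day 3 replicate 3, and was 0.20 without knockout day 3 replicate 1.

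The 499 differences between the genotypes became 269 in the fit on 11 libraries, and leaving out 1 library gave 338 (wild-type day 0 replicate 1) to 1749 (wild-type day 0 replicate 2, which leaves the library with few low values alone at that day and is assumed to vary like the other groups). The other settings gave 341 to 617. The share that was positive was 48.1% of the 499, 33.8% after scaling to an equal median and 58.3% after quantile normalization.

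Same-numbered libraries of the 2 days did not deviate together (r across genes of −0.17, −0.06 and −0.02). This gives no sign that the numbers pair the samples, but cannot exclude that they do. With a replicate block 4612 genes were called and 468 differences, of the named ones all but *Gata4*. TPM near 1 rests on few reads, the exact number depending on gene length, and is measured with less precision. Every knockout library is of 1 clone.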

Other observations

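Gene types were unequally represented among the changes. Of 13378 protein-coding genes tested, 2641 were higher (19.7%) and 1077 lower (8.05%) at day 3, against 16.6% and 9.56% of all genes tested. Of 1396 processed pseudogenes 47 were higher (3.37%) and 180 lower (12.9%), and of 557 lincRNAs 60 (10.8%) and 116 (20.8%). Of 653 antisense RNAs 63 were higher (9.65%) and 94 lower (14.4%), and of 212 snoRNA genes 6 (2.83%) and 54 (25.5%). The split of the protein-coding genes depended on scaling, with 2183 higher and 1351 lower after quantile normalization and 1924 and 1754 after scaling to an equal median, whereas the pseudogenes, lincRNAs, antisense RNAs and snoRNA genes kept more falls than rises in each change of scaling. Without knockout day 3 replicate 1, however, antisense RNAs had 75 rises and 74 falls, and at a 4-fold minimum 18 and 17. Among the remaining types, rises outnumbered falls, as among all genes tested, for processed transcripts (36 and 30 of 240, 15% and 12.5%). The same held for lncRNAs of bidirectional promoters (7 and 4 of 66, 10.6% and 6.06%). The split of these types was not computed under other scalings. Pseudogenes share reads with their parent genes, and an antisense gene with its partner unless reads are counted by strand. Called protein-coding genes that fell had a median exon length of 3261 bases, those that rose 4482 bases and the rest 4362 bases.

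Of 588 genes tested on the X chromosome, 150 were higher and 41 lower (25.5% and 6.97%, against 16.6% and 9.56% of all genes). After scaling to an equal median 111 X-linked genes were higher and 75 lower, against 2114 and 2683 of all genes. By voom these numbers were 157 and 59, against 3156 and 2182.

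Mitochondrially encoded genes took up 5.56%, 5.38% and 5.13% of all TPM in the day 0 libraries and 7.06%, 6.87% and 7.94% in the day 3 libraries. The 83 cytosolic ribosomal protein genes went from 8.17%, 9.30% and 8.97% to 7.90%, 6.90% and 6.30%. Neither pair of groups overlapped, and these sums carry no test.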
